A study of Mus musculus with 6 samples.

Results

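The 52 genes described here encode noncollagen proteins of the extracellular matrix. They are matricellular and adhesive glycoproteins, lysyl oxidases, elastic fibre and microfibril proteins, small leucine-rich proteoglycans, aggregating proteoglycans with their link proteins, laminins and other basement membrane proteins, and the glycoproteins of cartilage. They were taken by gene symbol from the deposited expression table, where all 52 are listed among 19309 genes. RNA came from ear skin of C57BL/6 mice aged 6 to 8 weeks with DNFB-induced allergic contact dermatitis. DNFB, 2,4-dinitrofluorobenzene, is a reactive chemical to which T cells respond once it has attached to proteins of the skin. All animals were first sensitised (25 µL, 0.5% DNFB). From day 6, and for 6 days, their left ears were painted with 0.25% DNFB and their right ears with its vehicle, a mixture of 80% acetone with 20% olive oil, in a volume of 10 µL per ear. Each of 3 mice gave a DNFB ear and a vehicle ear, for 6 libraries in all. The vehicle ears therefore belong to sensitised animals whose other ear was being challenged, and no untreated animal is part of the comparison.

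The matrix of ear skin is built by several cell types. Dermal fibroblasts lay down collagen together with elastic fibres, in which elastin is deposited on a scaffold of fibrillin microfibrils and crosslinked by lysyl oxidases, and small leucine-rich proteoglycans such as decorin coat and space the collagen fibrils. Keratinocytes and fibroblasts share the building of the basement membrane, and the auricular cartilage at the core of the ear holds aggrecan bound to hyaluronan through link proteins. Matricellular proteins such as tenascin C, thrombospondins and osteopontin contribute little to the mechanical strength of tissue and act on adhesion, protease activity and growth factor signalling, and many of them are known to be induced in wounds and inflammation.

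Library totals ranged from 20089938 to 20336945 estimated counts in DNFB ears and from 19556754 to 20201440 in vehicle ears, and 15317 genes had enough counts to be tested. Levels are given as CPM, counts scaled to a common library size. Markers of basal keratinocytes summed to 6031 to 9412 CPM in DNFB ears and 7551 to 9490 CPM in vehicle ears. Markers of dermal fibroblasts, chondrocytes, skeletal muscle and adipocytes were detected as well, none of them at 0 in all libraries. Of the 12 markers of dermal fibroblasts, cells that make much of this matrix, 5 rose and 2 fell. Their sums were 13060, 14630 and 10910 CPM in DNFB ears, against 9415, 8564 and 9861 CPM in vehicle ears. A large part of these sums was Col3a1 alone, at 5828, 6143 and 4138 CPM in DNFB ears, against 2622, 2549 and 2774 CPM in vehicle ears. The sums therefore do not show a rise of the fibroblast markers as a whole. The part of fibroblasts in the changes of elastic fibre, lysyl oxidase and proteoglycan genes was not tested. The DNFB ear of mouse 3 stood apart from the other DNFB ears. Across the genes tested, which are not independent replicates, its log2 CPM correlated with the vehicle ears at 0.915 to 0.923, against 0.856 to 0.880 for the DNFB ears of mice 1 and 2. Neutrophil markers in it summed to 1149 CPM, against 2607 and 2214 CPM in the DNFB ears of mice 1 and 2. In vehicle ears they summed to 39.9 to 83.9 CPM.

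Of the 52 genes, 51 were tested and 30 passed an adjusted p of 0.05 by edgeR's quasi-likelihood test, 13 higher and 17 lower in DNFB ears. Over all genes tested 51.3% passed, 25.9% higher and 25.4% lower, and among the matrix genes the shares were 58.8%, 25.5% and 33.3%, so the number of matrix genes that changed was near that of the whole transcriptome. Their median log2 fold change was -0.01, against -0.02 over all genes tested. By role, tenascin C, osteopontin, 3 thrombospondins, versican and 4 elastic fibre proteins were among the higher genes, and 5 of 7 small leucine-rich proteoglycans and 5 of 6 tested cartilage glycoproteins and matrilins were among the lower ones. In RNA from whole tissue, fewer cells of a type and less RNA per cell cannot be told apart. Among those that passed, 7 of the higher and 11 of the lower genes changed over 2-fold. The share of all genes tested that did so was not counted, so these numbers do not set the matrix genes apart. In each of the 30 the DNFB and vehicle libraries did not overlap, so a move the same way in all 3 mice follows and adds no support. Of all 51 tested matrix genes, 37 moved the same way in the 3 mice. For 34 of the 51 genes (66.7%, against 62.6% of all genes tested) the DNFB and vehicle libraries did not overlap, 15 of them higher and 19 lower (30.6% and 32.0% of all genes tested).

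The number of higher genes leaned on single libraries more than the number of lower ones. It was 7 and 6 when the vehicle ear of mouse 1 or of mouse 2 was left out (19.9% of all genes tested in each case), and 15 when the DNFB ear of mouse 3 was (28.9% of all genes tested). The number of lower genes lay between 15 and 19 when any 1 library was left out, with 17.1% to 29.5% of all genes tested. Only 6 of the 13 higher genes (Spp1, Tnc, Vcan, Thbs1, Loxl1 and Efemp2) passed whichever single library was left out, against 15 of the 17 lower ones, the exceptions there being Sparc and Dcn.

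**Figure D1:**
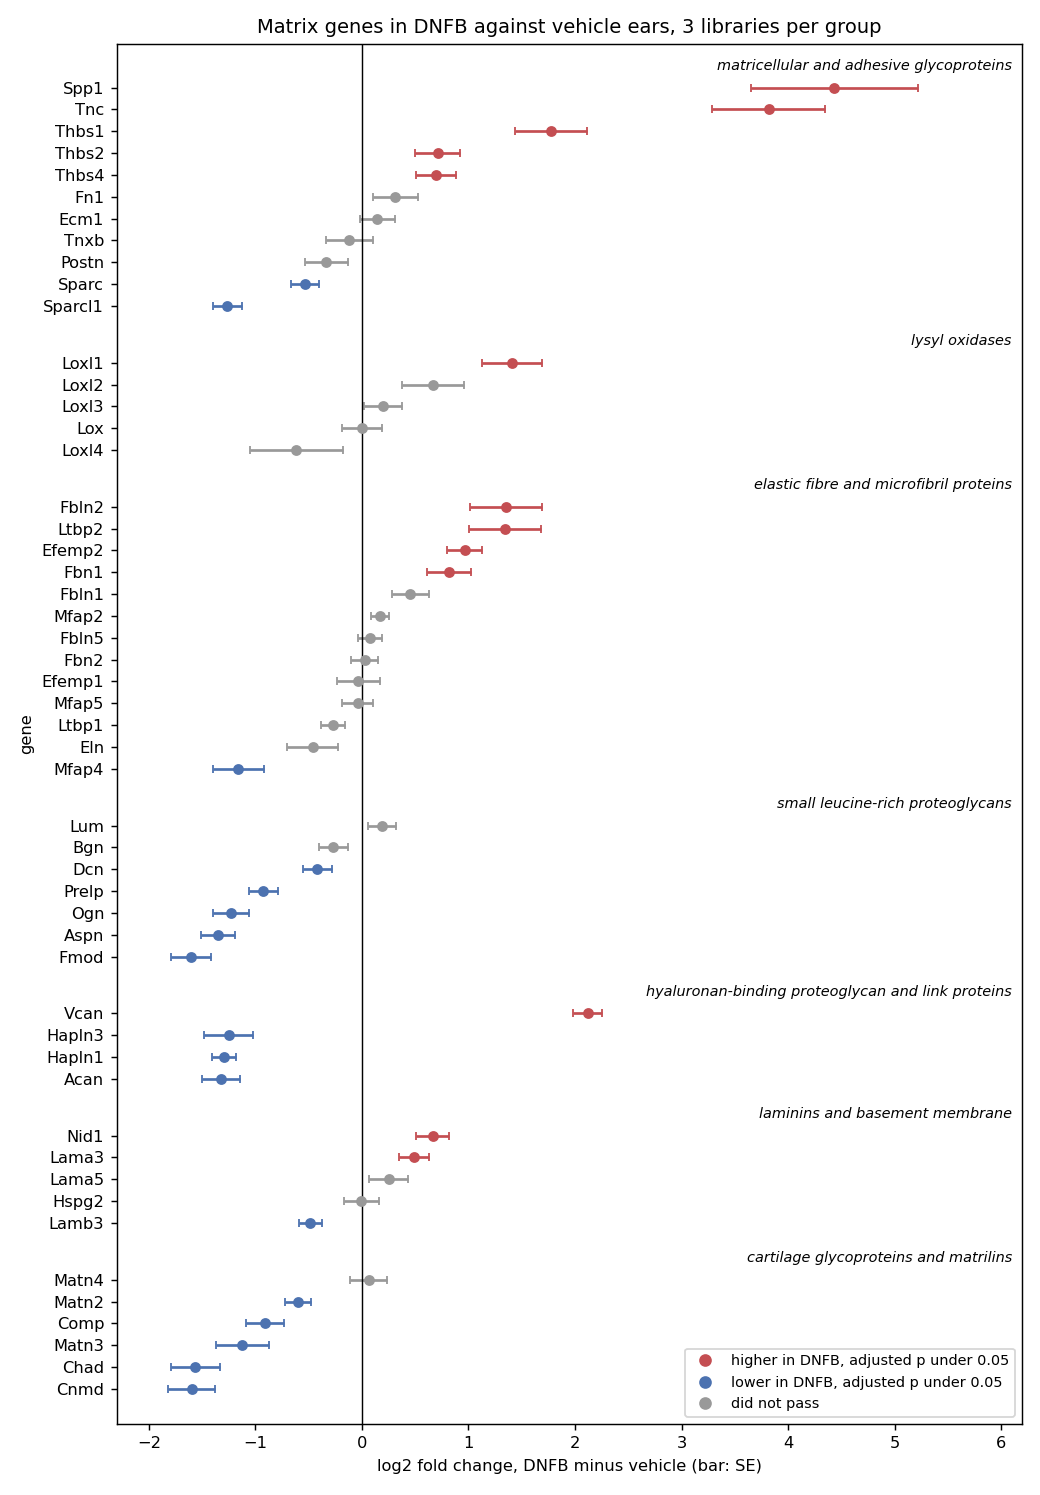
Log2 fold change (DNFB minus vehicle, x axis) of the 51 tested matrix genes, grouped by role, with the approximate SE as bars and colour for the call at an adjusted p of 0.05. Spp1 and Tnc lie farthest to the right at 4.43 and 3.82, and no leucine-rich proteoglycan or cartilage glycoprotein passed on that side.

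Tnc, Spp1 and Thbs1 had the largest increases among the 11 matricellular and adhesive glycoproteins, of which 5 rose, 2 fell and 4 were not called (their median log2 fold change was 0.32). Tnc encodes tenascin C, a large hexameric glycoprotein that is scarce in resting adult dermis and appears in wounds. It measured 2440, 2596 and 619 CPM in the DNFB ears of mice 1, 2 and 3, against 143, 114 and 144 CPM in their vehicle ears. Every DNFB ear lay above every vehicle ear, with the ear of mouse 3 far below the other DNFB ears. The fitted increase was 14.1-fold (log2 fold change 3.82 ± 0.53, SE, adjusted p = 0.00129 by edgeR).

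Spp1, which encodes osteopontin, a phosphorylated integrin ligand made by macrophages, T cells and bone cells, measured 273, 551 and 55.2 CPM in DNFB ears, against 10.2, 15.9 and 14.6 CPM in vehicle ears. The DNFB ears differed widely among themselves, that of mouse 3 being the lowest, and all lay above the vehicle ears. The increase was 21.6-fold (log2 fold change 4.43 ± 0.78, SE, adjusted p = 0.00344 by edgeR). It was 3.60 on the log2 scale when the DNFB ear of mouse 2 was left out. All 9 macrophage markers rose as well, with summed levels of 3824 to 6139 CPM in DNFB ears and 1327 to 1448 CPM in vehicle ears, and their part in the increase of Spp1 was not tested.

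Thbs1 encodes thrombospondin 1, a trimeric glycoprotein stored in platelet granules and made by many injured tissues, which activates latent TGF-beta. It measured 1783, 1606 and 690 CPM in DNFB ears, against 423, 358 and 409 CPM in vehicle ears. All DNFB ears were above all vehicle ears, and the increase was 3.43-fold (log2 fold change 1.78 ± 0.34, SE, adjusted p = 0.00444 by edgeR). Markers of platelets summed to 117 to 267 CPM in DNFB ears and 78.3 to 90.1 CPM in vehicle ears, and 3 of the 4 that could be tested rose, with Gp9 and Treml1 too low to test. The part of platelets in the level of Thbs1 was not tested.

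The related thrombospondins changed less. Thbs2, known as an inhibitor of angiogenesis, measured 136.5, 140.5 and 79.6 CPM in DNFB ears, against 74.0, 68.7 and 75.2 CPM in vehicle ears (log2 fold change 0.71 ± 0.21, SE, adjusted p = 0.0263 by edgeR). In mouse 3 the ears differed by 0.08 on the log2 scale, and the call was lost on leaving out any 1 library (adjusted p 0.0671 to 0.0942) except the DNFB library of mouse 3. Thbs4, a pentameric thrombospondin abundant in tendon and muscle, measured 330, 344 and 243 CPM in DNFB ears, against 162, 175 and 229.5 CPM in vehicle ears (log2 fold change 0.69 ± 0.19, SE, adjusted p = 0.0180 by edgeR). In the fit blocked by mouse it did not pass (adjusted p = 0.0508). Nor did it on leaving out the DNFB library of mouse 2 (0.0653) or the vehicle library of mouse 1 (0.0749) or 2 (0.0750).

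Sparc and Sparcl1 encode related calcium-binding glycoproteins: SPARC, also called osteonectin, binds collagen and guides fibril assembly, and SPARC-like 1, or hevin, is prominent around blood vessels and in muscle. Sparcl1 measured 192, 165 and 224.5 CPM in DNFB ears, against 448, 491 and 459 CPM in vehicle ears, a 2.40-fold decrease with no overlap (log2 fold change -1.26 ± 0.14, SE, adjusted p = 0.000512 by edgeR). Sparc, whose mean TPM was the highest of the matrix transcripts in both groups although Dcn was above it in the DNFB ear of mouse 2, measured 4298, 3623 and 3848 CPM in DNFB ears, against 5720, 5510 and 5804 CPM in vehicle ears. The decrease was 1.45-fold (log2 fold change -0.53 ± 0.13, SE, adjusted p = 0.0143 by edgeR). Sparc did not pass in the fit blocked by mouse (adjusted p = 0.0569), nor on leaving out the DNFB library of mouse 2 (0.0684) or the vehicle library of mouse 1 (0.0530).

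The remaining 4 of these glycoproteins did not pass. Fn1, fibronectin, a major ligand of integrins, measured 881, 1193 and 778 CPM in DNFB ears, against 760, 617 and 916 CPM in vehicle ears, and the groups overlapped (log2 fold change 0.32 ± 0.21, SE, adjusted p = 0.245 by edgeR). Postn, periostin, a matricellular protein known for its part in type 2 inflammation of skin, measured 1135, 1109 and 1659 CPM in DNFB ears, against 1371, 1910 and 1635 CPM in vehicle ears (log2 fold change -0.33 ± 0.21, SE, adjusted p = 0.212 by edgeR). On leaving out the DNFB library of mouse 3 it passed as lower (log2 fold change -0.55, adjusted p = 0.0185 by edgeR). Tnxb, which encodes tenascin X, a collagen-organising relative of tenascin C, overlapped between the groups (-0.12 ± 0.22 on the log2 scale, SE, adjusted p = 0.671 by edgeR). So did Ecm1, a glycoprotein of skin that binds perlecan and matrix proteases (0.14 ± 0.16 on the log2 scale, SE, adjusted p = 0.496 by edgeR). Per length, Tnc stood at 36.7, 33.9 and 5.72 times the TPM of Tnxb in DNFB ears, against 1.66, 1.62 and 1.34 times in vehicle ears.

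**Figure D2:**
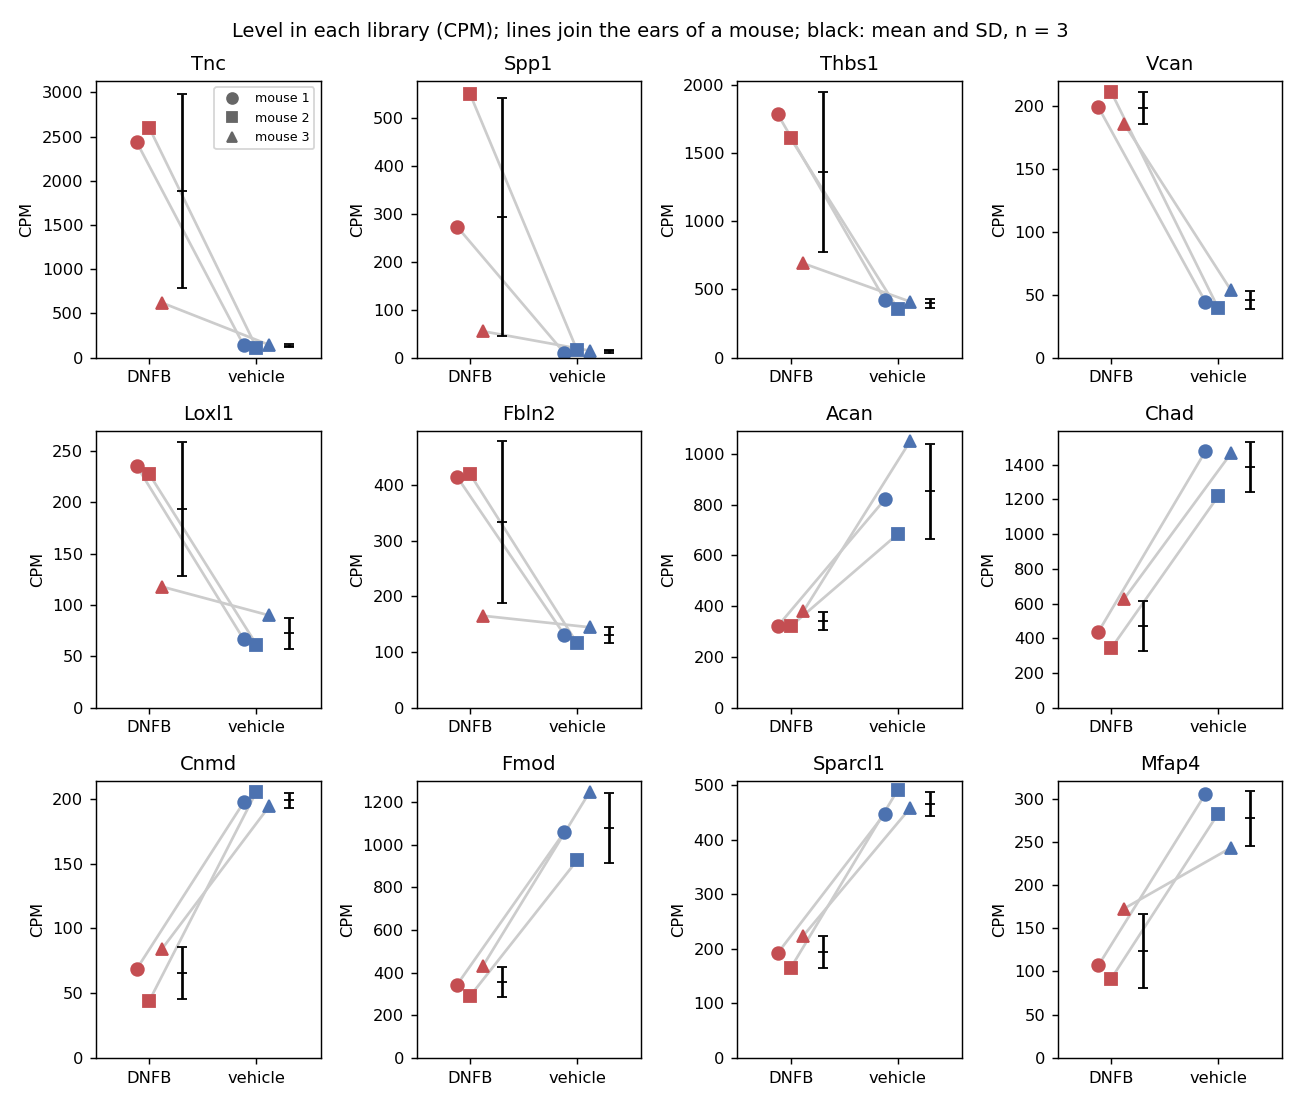
CPM (y axis, linear from 0) of 12 matrix genes in each library, DNFB ears in red and vehicle ears in blue, with marker shape for the mouse, grey lines joining the ears of 1 animal and black bars for mean and SD (n = 3). For Tnc, Spp1, Thbs1, Loxl1 and Fbln2 the DNFB ear of mouse 3 lies well below the other DNFB ears, whereas for Vcan, Acan and Fmod the DNFB ears lie close together.

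Sequences at the transcription start are shown for the largest increases, Tnc and Spp1, and for Acan and Chad, decreases among the cartilage genes, so that the starts of genes moving in opposite directions can be compared. They run from 250 bases before to 50 bases after a start annotated by RefSeq on build GRCm38.p6, a different build from the one used for the counts, and where a gene has several starts 1 is shown. They lie at chr4:64046887-64047186 (minus strand) for Tnc, chr5:104434861-104435160 (plus strand) for Spp1, chr7:79052976-79053275 (plus strand) for Acan and chr11:94564797-94565096 (plus strand) for Chad. Capitals mark matches on either strand to TATAAA, the core of the TATA box, or to a form of the NF-kB site (GGG, any 2 letters, TT, any letter, CC). No match to the AP-1 letters TGANTCA or the SOX letters ACAATG is in these 4 windows.
Tnc: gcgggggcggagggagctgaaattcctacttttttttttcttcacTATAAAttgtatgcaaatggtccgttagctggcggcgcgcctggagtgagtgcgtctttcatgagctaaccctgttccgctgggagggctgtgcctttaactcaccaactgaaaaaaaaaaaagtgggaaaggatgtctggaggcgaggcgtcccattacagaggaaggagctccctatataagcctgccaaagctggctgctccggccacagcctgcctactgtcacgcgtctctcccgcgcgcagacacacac
Spp1: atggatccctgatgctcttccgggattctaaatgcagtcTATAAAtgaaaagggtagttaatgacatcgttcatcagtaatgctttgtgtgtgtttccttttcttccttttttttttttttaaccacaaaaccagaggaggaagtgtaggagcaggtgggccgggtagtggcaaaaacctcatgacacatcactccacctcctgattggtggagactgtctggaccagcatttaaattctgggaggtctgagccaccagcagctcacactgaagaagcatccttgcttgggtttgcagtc
Acan: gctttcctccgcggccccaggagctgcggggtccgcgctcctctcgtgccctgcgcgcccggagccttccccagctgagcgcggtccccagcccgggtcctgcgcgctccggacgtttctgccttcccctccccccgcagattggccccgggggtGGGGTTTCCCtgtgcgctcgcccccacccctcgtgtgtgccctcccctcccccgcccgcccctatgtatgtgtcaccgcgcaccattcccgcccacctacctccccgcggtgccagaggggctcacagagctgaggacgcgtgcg
Chad: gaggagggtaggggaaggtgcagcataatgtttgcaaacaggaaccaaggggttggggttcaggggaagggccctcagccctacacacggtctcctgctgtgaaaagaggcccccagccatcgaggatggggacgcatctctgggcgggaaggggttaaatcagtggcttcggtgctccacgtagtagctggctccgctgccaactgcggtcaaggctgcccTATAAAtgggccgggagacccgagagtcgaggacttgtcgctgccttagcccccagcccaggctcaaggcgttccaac
In Chad the TATAAA match begins 28 bases before the start, the usual place of a TATA box. In Tnc and Spp1 it begins 205 and 211 bases before it. Only the exact letters TATAAA were searched, and variants of the TATA box were left in lower case. The Tnc window holds such a variant, tatataa, between its marked match and the start. A TATA box near the starts of Tnc and Spp1 is therefore not excluded by the capitals. In Acan the match to the NF-kB letters begins 95 bases before the start, and GGAATG, the letters bound by TEAD factors, begins 12 bases before it on the opposite strand and is left in lower case. Windows were at hand for 36 of the 52 genes. TATAAA was in 4 of 14 windows (28.6%, from 3 genes) of genes that rose and 4 of 13 (30.8%) of those that fell, against 13.6% of all 32851 windows. TGANTCA, in 7.81% of all windows, was in none of those of either group, nor was ACAATG, in 12.6% of all. Among the genes that rose or fell, the NF-kB letters, in 4.79% of all windows, were in the window of Acan alone. GGAATG was in 2 of 14 and 4 of 13 windows against 14.7% of all. A form of the CArG box bound by serum response factor (CC, any letter, TATTAGG) was in none, against 0.146% of all. The tested genes that did not pass had 19 windows. TGANTCA was in 3 of these (15.8%), TATAAA and GGAATG in 2 each, and ACAATG and the NF-kB letters in 1 each. These are matches of letters in short windows and say nothing of binding.

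Among the lysyl oxidases, copper enzymes that crosslink collagen and elastin, Loxl1 rose and the other 4 were not called (median log2 fold change 0.20). The product of Loxl1 is needed to renew elastic fibres in adult mice. Loxl1 measured 235, 227 and 118 CPM in DNFB ears, against 66.7, 61.5 and 89.8 CPM in vehicle ears, without overlap. The increase was 2.66-fold (log2 fold change 1.41 ± 0.28, SE, adjusted p = 0.00547 by edgeR). Lox, the founding enzyme of the family, measured 399, 334 and 241 CPM in DNFB ears, against 306, 310 and 358.5 CPM in vehicle ears, and did not pass (adjusted p = 0.996 by edgeR). Its DNFB ear was above the vehicle ear in mice 1 and 2 and below it in mouse 3.

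Loxl2 measured 205, 214 and 94.1 CPM in DNFB ears, against 104, 98.6 and 121 CPM in vehicle ears. The DNFB ear was higher in mice 1 and 2, by 0.98 and 1.11 on the log2 scale, and lower in mouse 3 (-0.36). Loxl2 did not pass (log2 fold change 0.67 ± 0.29, SE, adjusted p = 0.0955 by edgeR), except when the DNFB ear of mouse 3 was left out (0.96, adjusted p = 0.000170 by edgeR). Loxl4 measured 132, 121 and 303 CPM in DNFB ears, against 197, 224 and 431 CPM in vehicle ears. Both ears of mouse 3 were the highest of their group, so that the groups overlapped although the DNFB ear was lower in each animal. It did not pass (log2 fold change -0.61 ± 0.43, SE, adjusted p = 0.269 by edgeR). It passed as lower in the fit blocked by mouse (-0.66, adjusted p = 0.0160) and on leaving out the DNFB library of mouse 3 (-1.17, adjusted p = 0.0136). Loxl3, whose exons overlap those of Htra2 on the opposite strand, differed by 0.20 ± 0.18 on the log2 scale (SE, adjusted p = 0.371 by edgeR). On leaving out the vehicle library of mouse 3 it passed as higher (0.44, adjusted p = 0.0209).

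Of the 13 elastic fibre and microfibril genes, Fbln2, Ltbp2, Efemp2 and Fbn1 rose and Mfap4 fell, and the other 8 were not called (median log2 fold change 0.08). Fibulin 2 bridges fibrillin and basement membrane proteins. Its gene, Fbln2, measured 414.5, 420 and 165 CPM in DNFB ears, against 132, 116 and 145 CPM in vehicle ears (log2 fold change 1.35 ± 0.34, SE, adjusted p = 0.0136 by edgeR). Ltbp2, a fibrillin-binding protein of the latent TGF-beta binding family, measured 59.5, 70.9 and 27.7 CPM in DNFB ears, against 16.7, 21.4 and 24.2 CPM in vehicle ears (log2 fold change 1.34 ± 0.33, SE, adjusted p = 0.0136 by edgeR). In mouse 3 the ears differed by 0.19 on the log2 scale for each of these genes. Both calls were lost on leaving out the vehicle library of mouse 1 (adjusted p = 0.0512 for Fbln2 and 0.0568 for Ltbp2) or of mouse 2 (0.0614 for Fbln2 and 0.0523 for Ltbp2).

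Efemp2, fibulin 4, which recruits lysyl oxidase to tropoelastin, measured 128, 123 and 84.0 CPM in DNFB ears, against 57.2, 56.7 and 57.6 CPM in vehicle ears. The vehicle ears were nearly alike and all DNFB ears lay above them (log2 fold change 0.96 ± 0.16, SE, adjusted p = 0.00281 by edgeR). Counts of Mus81, which overlaps it on the opposite strand in the reference annotation, were 9.71% to 19.9% of its own. Fbn1, fibrillin 1, the main microfibril protein, measured 347, 371 and 247 CPM in DNFB ears, against 161, 159 and 228 CPM in vehicle ears (log2 fold change 0.82 ± 0.21, SE, adjusted p = 0.0144 by edgeR). Its call was lost on leaving out the DNFB library of mouse 2 (adjusted p = 0.0530) or the vehicle library of mouse 1 (0.0639) or 2 (0.0644).

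Elastin itself, Eln, measured 1195, 857.5 and 1227 CPM in DNFB ears, against 1417, 1125 and 1970 CPM in vehicle ears. It was lower in the DNFB ear of each mouse, the groups overlapped and it did not pass (log2 fold change -0.46 ± 0.24, SE, adjusted p = 0.145 by edgeR). Mfap4, a fibrinogen-related glycoprotein of elastic fibres, measured 107, 91.7 and 173 CPM in DNFB ears, against 305.5, 283 and 243 CPM in vehicle ears (log2 fold change -1.16 ± 0.24, SE, adjusted p = 0.00626 by edgeR). Its exons overlap those of Mapk7 on the opposite strand in the reference annotation, and the counts of Mapk7 were 5.40% to 34.2% of those of Mfap4. Fbln1, fibulin 1, differed by 0.46 ± 0.17 on the log2 scale (SE, adjusted p = 0.0585 by edgeR). It passed as higher on leaving out either the DNFB library (adjusted p = 0.0257) or the vehicle library (0.0314) of mouse 3, and with DESeq2 (0.0414). The log2 fold changes of the others that did not pass were 0.17 for Mfap2, 0.08 for Fbln5, 0.03 for Fbn2, -0.03 for Efemp1, -0.04 for Mfap5 and -0.27 for Ltbp1, which passed as lower with upper-quartile scaling (adjusted p = 0.0343).

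Of the 7 small leucine-rich proteoglycans, 5 fell and none rose (median log2 fold change -0.93). Fmod, fibromodulin, which regulates collagen fibril growth in tendon and cartilage, measured 344, 290 and 431 CPM in DNFB ears, against 1058, 926 and 1249 CPM in vehicle ears. This was a 3.04-fold decrease of nearly the same size in each animal, with log2 differences of -1.62, -1.68 and -1.54 in mice 1, 2 and 3 (log2 fold change -1.60 ± 0.19, SE, adjusted p = 0.000682 by edgeR). Aspn, asporin, an inhibitor of TGF-beta in cartilage, measured 200, 180 and 243 CPM in DNFB ears, against 452, 596 and 538 CPM in vehicle ears (log2 fold change -1.35 ± 0.16, SE, adjusted p = 0.000727 by edgeR). Ogn, osteoglycin or mimecan, a collagen-binding member of the family, fell 2.34-fold (log2 fold change -1.23 ± 0.17, SE, adjusted p = 0.00130 by edgeR). Prelp, which anchors basement membrane to connective tissue, fell 1.90-fold (-0.93 ± 0.14, SE, adjusted p = 0.00168 by edgeR).

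The abundant dermal members changed least. Dcn, decorin, the main proteoglycan on dermal collagen, measured 3586, 3286 and 3099 CPM in DNFB ears, against 4132, 4798 and 4396 CPM in vehicle ears, without overlap. The decrease was 1.34-fold (log2 fold change -0.42 ± 0.14, SE, adjusted p = 0.0365 by edgeR). Dcn did not pass in the fit blocked by mouse (adjusted p = 0.116), nor on leaving out any 1 library (0.0554 to 0.115) except the DNFB library of mouse 3. Lum, lumican, which spaces collagen fibrils, measured 786, 864 and 694 CPM in DNFB ears, against 634, 767 and 654.5 CPM in vehicle ears, and overlapped (log2 fold change 0.19 ± 0.14, SE, adjusted p = 0.276 by edgeR). Bgn, biglycan, a relative of decorin that also acts as a danger signal when released, was not called (-0.27 ± 0.13 on the log2 scale, SE, adjusted p = 0.132 by edgeR). Within a library the ratio of Fmod to Lum in TPM was 0.288, 0.221 and 0.409 in DNFB ears, against 1.10, 0.796 and 1.26 in vehicle ears.

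Versican and aggrecan, hyaluronan-binding proteoglycans of 1 family, moved in opposite directions. Vcan, versican, the form found in loose, proliferating and inflamed tissue, measured 199, 211 and 186 CPM in DNFB ears, against 44.4, 39.3 and 53.4 CPM in vehicle ears. The increase was 4.35-fold and even across the animals, with log2 differences of 2.16, 2.42 and 1.80 in mice 1, 2 and 3 (log2 fold change 2.12 ± 0.14, SE, adjusted p = 8.79e-05 by edgeR). Acan, aggrecan, the proteoglycan that gives cartilage its resistance to compression, measured 322, 321 and 381 CPM in DNFB ears, against 820, 684 and 1052 CPM in vehicle ears (log2 fold change -1.32 ± 0.18, SE, adjusted p = 0.00118 by edgeR). Per length, Vcan stood at 0.644, 0.686 and 0.497 times the TPM of Acan in DNFB ears, against 0.0544, 0.0640 and 0.0525 times in vehicle ears.

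Both link proteins, which lock such proteoglycans onto hyaluronan, fell. Hapln1, cartilage link protein, measured 76.8, 61.6 and 75.0 CPM in DNFB ears, against 168, 181 and 174 CPM in vehicle ears (log2 fold change -1.29 ± 0.11, SE, adjusted p = 0.000244 by edgeR). Hapln3, a link protein of wider distribution, was scarce, at 1.44, 1.05 and 1.63 CPM in DNFB ears, against 3.60, 2.95 and 3.27 CPM in vehicle ears (log2 fold change -1.25 ± 0.23, SE, adjusted p = 0.00405 by edgeR).

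**Figure D3:**
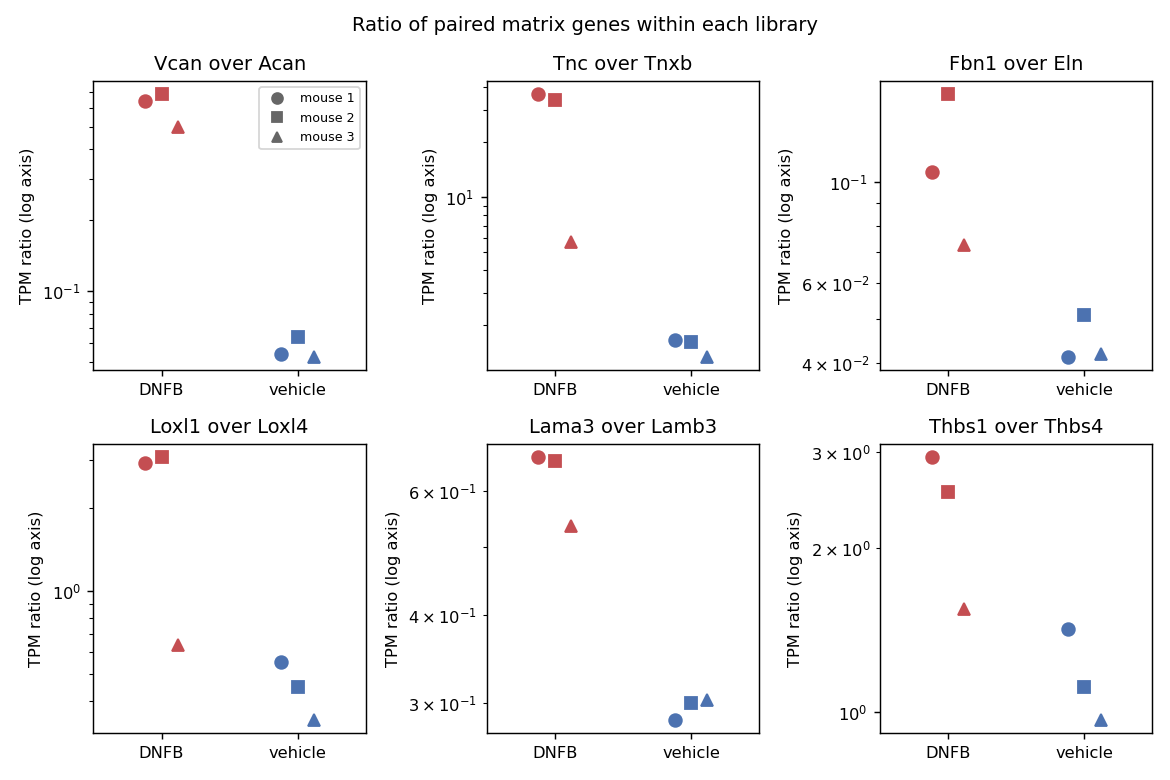
Ratio of the TPM of 6 pairs of matrix genes, chosen after their values were seen, within each library (y axes are logarithmic), DNFB ears in red and vehicle ears in blue, with marker shape for the mouse. For all 6 pairs every DNFB ear lies above every vehicle ear, and for Tnc over Tnxb and Loxl1 over Loxl4 the DNFB ear of mouse 3 (5.72 and 0.636) lies well below the other DNFB ears.

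Of the 7 cartilage glycoproteins and matrilins, 5 fell, 1 did not pass and 1 could not be tested (median log2 fold change -1.02 over the 6 tested). Chad, chondroadherin, a leucine-rich protein through which chondrocytes bind collagen, measured 438, 343 and 627 CPM in DNFB ears, against 1477, 1219 and 1466 CPM in vehicle ears (log2 fold change -1.56 ± 0.23, SE, adjusted p = 0.00163 by edgeR). Cnmd, chondromodulin, the angiogenesis inhibitor of avascular cartilage, measured 68.5, 44.3 and 84.4 CPM in DNFB ears, against 197, 205 and 194 CPM in vehicle ears, a 3.03-fold decrease (log2 fold change -1.60 ± 0.22, SE, adjusted p = 0.00126 by edgeR). In both genes all DNFB ears lay below all vehicle ears, and the highest DNFB ear was that of mouse 3.

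Comp encodes cartilage oligomeric matrix protein, a pentameric thrombospondin that assembles collagen fibrils. It measured 83.6 ± 14.2 CPM in DNFB ears and 157 ± 29.1 CPM in vehicle ears (SD, n = 3 each), lower in the DNFB ear of each mouse and without overlap (log2 fold change -0.91 ± 0.18, SE, adjusted p = 0.00504 by edgeR). The matrilins, filament-forming adaptor proteins, differed among themselves. Matn3, found in cartilage, fell 2.18-fold (log2 fold change -1.12 ± 0.25, SE, adjusted p = 0.00825 by edgeR), at levels of 1.78 to 2.48 CPM in DNFB ears and 3.41 to 5.54 CPM in vehicle ears. Matn2, the matrilin of skin and other soft tissues, fell 1.52-fold (-0.60 ± 0.12, SE, adjusted p = 0.00627 by edgeR), and Matn4 did not pass (0.06 ± 0.17 on the log2 scale, SE, adjusted p = 0.775 by edgeR). Matn1, the matrilin of hyaline cartilage, had 3, 1 and 0 estimated counts in the DNFB ears and none in the 3 vehicle ears, and was too scarce to test.

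The 7 genes best known from cartilage (Acan, Chad, Cnmd, Comp, Hapln1, Matn1 and Matn3) together summed to 681, 553.5 and 916 TPM in DNFB ears, against 2115, 1723 and 2306 TPM in vehicle ears, a grouping made after their values were seen. Chad alone held most of each sum, at 449, 354 and 637 TPM in DNFB ears, against 1521, 1199 and 1609 TPM in vehicle ears. Chondrocyte markers from outside the 52 genes moved with the 7 genes, and their part in these levels was not tested. Of the 15, 13 fell, Scrg1 rose and Col2a1 was not called, with a median of -1.20 on the log2 scale. Their summed level was 1543 to 3105 CPM in DNFB ears, against 5266 to 5873 CPM in vehicle ears, with none at 0. Cytl1 alone held most of each sum, at 1642, 1007 and 2322 CPM in DNFB ears, against 3993, 4577 and 3881 CPM in vehicle ears. Sox9, the master regulator of the chondrocyte lineage, measured 33.0, 29.2 and 49.2 CPM in DNFB ears, against 101, 94.1 and 117 CPM in vehicle ears. Col2a1, the fibrillar collagen of cartilage, overlapped at 97.0, 88.1 and 84.8 CPM in DNFB ears, against 77.9, 70.4 and 125 CPM in vehicle ears (log2 fold change -0.02 ± 0.21, SE, adjusted p = 0.943 by edgeR). Markers of other tissues of the ear fell too. All 9 of skeletal muscle did, with sums of 1196 to 1818 CPM in DNFB ears and 2658 to 4271 CPM in vehicle ears. All 6 of adipocytes did, with sums of 294.5 to 359 CPM in DNFB ears and 701 to 818 CPM in vehicle ears, and so did 5 of 6 of Schwann cells.

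**Figure D4:**
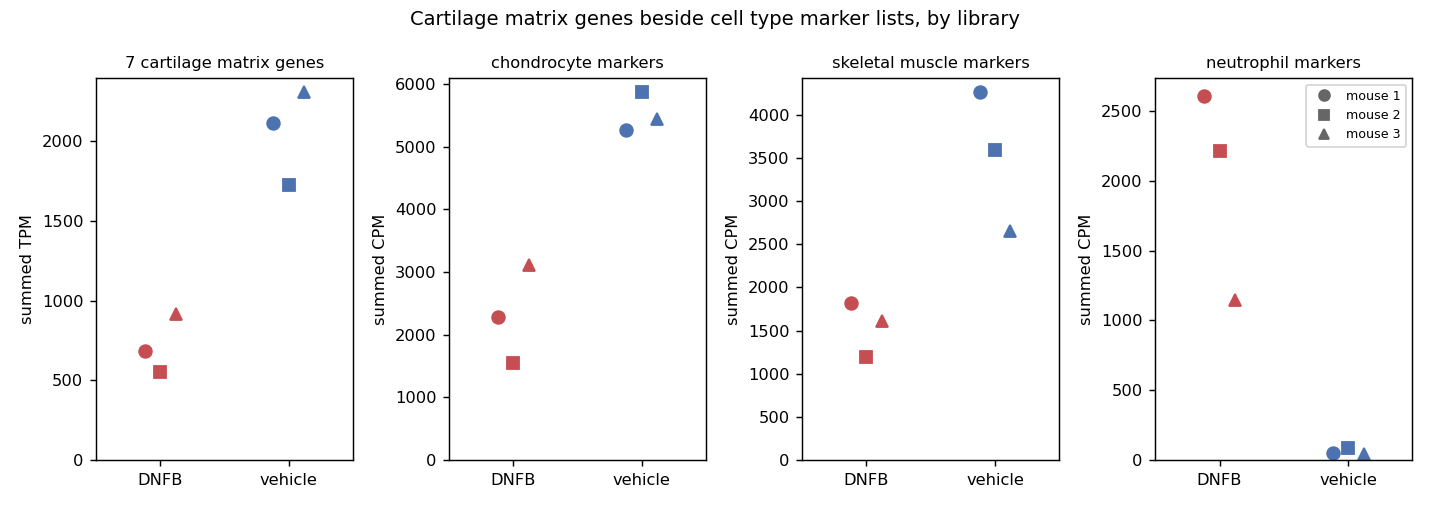
Summed TPM of the 7 cartilage matrix genes (left) and summed CPM of the marker lists of chondrocytes, skeletal muscle and neutrophils in each library (y axes linear from 0), DNFB ears in red and vehicle ears in blue, with marker shape for the mouse. The cartilage sums are 553.5 to 916 TPM in DNFB ears and 1723 to 2306 TPM in vehicle ears, and both the chondrocyte and the muscle sums separate the groups in the same direction. Most of each cartilage sum is Chad, and most of each chondrocyte sum is Cytl1.

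Among the 5 laminin and basement membrane genes, Nid1 and Lama3 rose, Lamb3 fell and Hspg2 and Lama5 were not called. Lama3 and Lamb3 encode an alpha and a beta chain of the laminin that anchors basal keratinocytes, and they moved in opposite directions. Lamb3 measured 54.9, 64.8 and 56.5 CPM in DNFB ears, against 86.9, 74.2 and 85.2 CPM in vehicle ears, and fell 1.40-fold (log2 fold change -0.48 ± 0.11, SE, adjusted p = 0.00869 by edgeR). Lama3 measured 51.8, 60.5 and 43.1 CPM in DNFB ears, against 37.2, 33.7 and 39.7 CPM in vehicle ears, and rose 1.41-fold (log2 fold change 0.49 ± 0.14, SE, adjusted p = 0.0236 by edgeR). The call of Lama3 was lost in the fit blocked by mouse (adjusted p = 0.0633) and on leaving out the DNFB library of mouse 2 (0.0787) or the vehicle library of mouse 1 (0.0744) or 2 (0.0914). Per length Lama3 stood at 0.671, 0.661 and 0.536 times the TPM of Lamb3 in DNFB ears, against 0.284, 0.300 and 0.303 times in vehicle ears. Markers of basal keratinocytes, the cells that make this laminin, fell in 2 of 8 cases and did not pass in 6.

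Nid1, nidogen 1, which links the laminin and collagen networks, measured 212, 216 and 154 CPM in DNFB ears, against 126, 108.5 and 133 CPM in vehicle ears (log2 fold change 0.66 ± 0.16, SE, adjusted p = 0.0109 by edgeR). On leaving out the vehicle library of mouse 2 the adjusted p was 0.0504. Hspg2, perlecan, the heparan sulphate proteoglycan of basement membranes, did not pass (-0.01 ± 0.16 on the log2 scale, SE, adjusted p = 0.976 by edgeR). Nor did Lama5, an alpha chain of laminins of vessels and epidermis (0.25 ± 0.18 on the log2 scale, SE, adjusted p = 0.285 by edgeR). Of the 9 endothelial markers 4 rose, 1 fell and 4 did not pass. They summed to 334.5 to 474 CPM in DNFB ears and 276 to 324 CPM in vehicle ears, and their part in these levels was not tested.

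The increases and the decreases differed in how the 3 animals took part. In all 13 genes that rose, mouse 3 had the smallest difference between its ears, and in 8 of them it was below 0.5 on the log2 scale, against 1 gene in mouse 1 and none in mouse 2. The median log2 difference of the 13 was 1.65, 1.72 and 0.21 in mice 1, 2 and 3. For the 17 genes that fell it was -1.14, -1.41 and -1.03, and mouse 3 had the difference nearest to 0 in 8 of them. Both sets were chosen by the fit on the same libraries, so these values describe the animals and were not tested. Vcan, with 1.80 in mouse 3, was the increase least reduced in that animal relative to the others. The neutrophil markers, 1149 CPM in the DNFB ear of mouse 3 against 2607 and 2214 CPM in those of mice 1 and 2, were lowest there too, and their part in these increases was not tested.

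**Figure D5:**
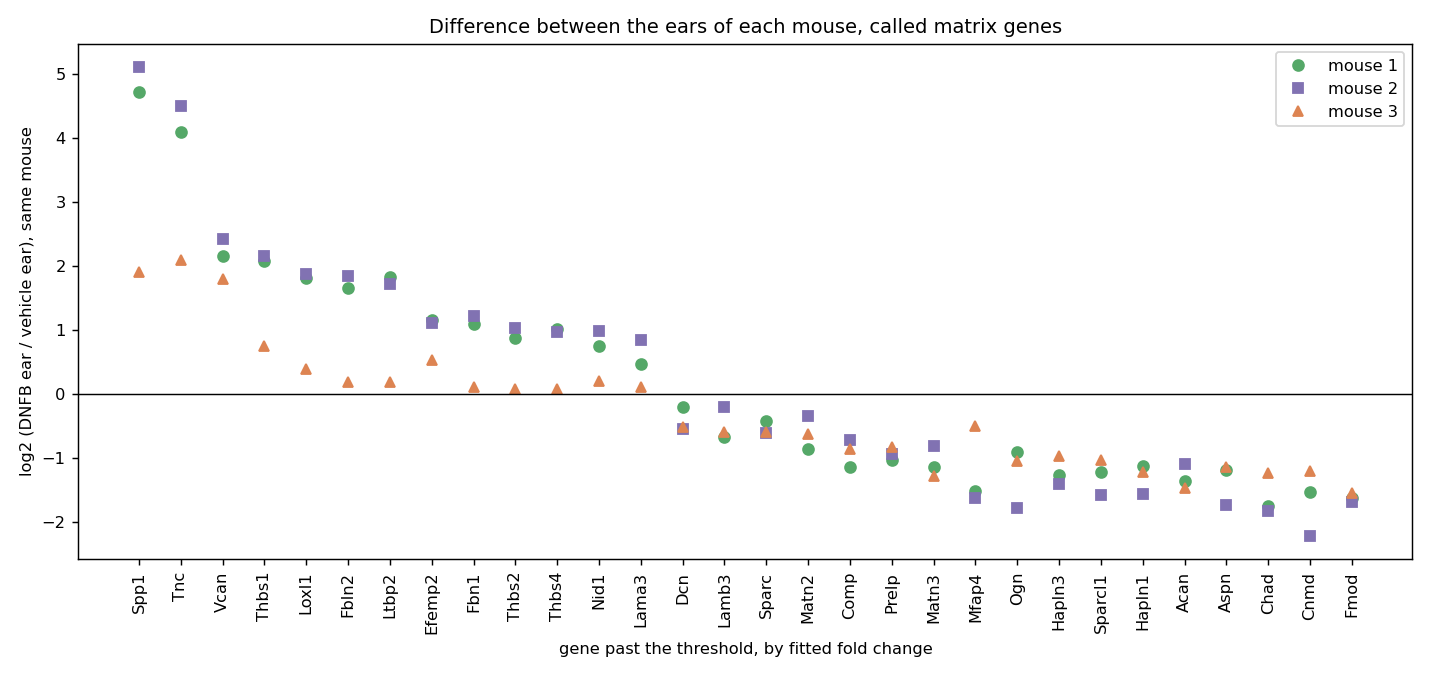
Log2 ratio of CPM between the DNFB and the vehicle ear of the same mouse (y axis) for the 30 matrix genes that passed, ordered by fitted fold change, with 1 symbol per mouse. The triangles of mouse 3 lie below those of mice 1 and 2 for all 13 higher genes and nearest to 0 for 8 of the 17 lower genes.

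Measured per length, 3 transcripts dominated the 52 genes, which include no collagens. Sparc stood at 3185 TPM on average in DNFB ears and 4669 TPM in vehicle ears, Dcn at 3071 TPM in DNFB ears and 4140 TPM in vehicle ears, and Bgn at 1902 TPM in DNFB ears and 2323 TPM in vehicle ears. The 52 genes together held 1.56%, 1.51% and 1.37% of all TPM in the DNFB ears of mice 1, 2 and 3, against 1.84%, 1.79% and 2.13% in their vehicle ears. Tnc stood at 661, 706 and 167 TPM in DNFB ears, against 41.1, 31.5 and 44.4 TPM in vehicle ears. Eln stood at 563, 408 and 576 TPM in DNFB ears, so that Tnc was above it in mice 1 and 2 and below it in mouse 3, against 670, 509 and 994 TPM in vehicle ears. The small leucine-rich proteoglycans as a class summed to 5901 to 6462 TPM in DNFB ears and 7961 to 9378 TPM in vehicle ears.

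Other genes of the same families, taken from lists of relatives rather than by their response, were read in the same way against the 25.9% and 25.4% of all genes that rose and fell. Of the other laminin and basement membrane genes, 10 of 16 fell and 2 rose, among them Nid2 (the second nidogen, log2 fold change 0.90), with the largest decreases in Fras1 (-1.64), Lamc3 (-1.41) and Lama1 (-1.35). Fras1 and Lama1 were scarce, at no more than 4.45 and 2.60 CPM in any library. The call of Lama1 was lost on leaving out the DNFB library of mouse 2 (adjusted p = 0.0525) or the vehicle library of mouse 3 (0.0555). Of the other matricellular genes 6 of 15 tested rose and 4 fell. Ccn4 (log2 fold change 2.04), Tgfbi (1.97), a TGF-beta-induced adhesion protein, and Tnn (1.67), tenascin W, had the largest increases, and Smoc2 (-1.44), Spock2 (-1.33) and Ccn2, connective tissue growth factor (2.00-fold lower), the largest decreases. The call of Tnn was lost on leaving out the DNFB library of mouse 2 (1.08, adjusted p = 0.0514) or the vehicle library of mouse 1 (adjusted p = 0.0704) or 2 (0.0821). Tgfbi measured 1596, 1460 and 969 CPM in DNFB ears, against 353, 292 and 385 CPM in vehicle ears.

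Among 12 other genes listed with the elastic fibre and microfibril genes 3 rose and 5 fell. Emilin2, an elastic fibre glycoprotein, measured 248, 231 and 156 CPM in DNFB ears, against 29.2, 28.7 and 37.0 CPM in vehicle ears (log2 fold change 2.74 ± 0.21, SE, adjusted p = 0.000148 by edgeR). Emilin1 rose by 1.07 on the log2 scale, whereas Mfap3l, Fbln7 and Ltbp4 fell by 1.65, 1.62 and 1.29. Of 10 other leucine-rich proteoglycans 5 fell, among them Omd (-1.83), Ecm2 (-1.66) and Kera (-1.49), and Podnl1 rose (2.17, at no more than 1.14 CPM in any library). Of 6 further genes listed with the hyalectans and link proteins 3 could be tested, of which Srgn and Prg4 are neither hyalectans nor link proteins. Srgn, serglycin, the granule proteoglycan of leukocytes, rose 20.2-fold. Prg4, lubricin, measured 278, 536 and 98.4 CPM in DNFB ears, against 72.4, 64.0 and 76.1 CPM in vehicle ears, and rose by 2.10 on the log2 scale. The value was 1.41 on leaving out the DNFB library of mouse 2, and the call was lost on leaving out the vehicle library of mouse 1 (adjusted p = 0.0537) or 2 (0.0633). Bcan, brevican, fell (-1.88), at no more than 2.02 CPM in any library. Its value was -2.65 on leaving out the DNFB library of mouse 3, and its call was lost on leaving out the DNFB (adjusted p = 0.0624) or the vehicle (0.0594) library of mouse 2.

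The enzymes that build the glycosaminoglycan chains of these proteoglycans numbered 28, of which 8 rose, 4 fell and 16 were not called (median log2 fold change 0.07). Chsy1 and Chsy3, chondroitin synthases, rose 2.34-fold and 2.25-fold, and Hs3st1, a heparan sulphate sulphotransferase, rose 1.86-fold. Chsy3 was scarce, at no more than 3.85 CPM in any library. Chst3, the sulphotransferase for the chondroitin 6-sulphate of cartilage, fell by 1.16 on the log2 scale, Xylt1, which starts the chains on the core protein, by 1.09 and Glce, the heparan sulphate epimerase, by 1.06. The levels of Chst3 were 6.33 to 7.43 CPM in DNFB ears and 13.6 to 17.7 CPM in vehicle ears.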

How the data were processed

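Ear skin RNA of 3 DNFB and 3 vehicle ears was sequenced after oligo(dT) selection and PCR amplification as single-end reads of 50 bases on a DNBSeq instrument, per the labels' protocols. HISAT and the build GRCm39 are named in the submitters' processing notes, while the sources used here give no counter, annotation or strand setting. The authors deposited estimated counts of reads per gene, not normalized, and FPKM and TPM per library with group means, per the file headers. FPKM and the group means were not used further. Whole numbers made up 43.7% and 41.6% of the counts in the DNFB libraries of mice 2 and 3, and 65.5% to 67.3% in each other library. The reason for this difference is not given in the sources used here. All counts were rounded. TPM, as deposited and without TMM scaling, served to compare levels between genes and to form ratios, sums and shares within a library. Where TPM values of DNFB and vehicle ears are set side by side, they were not tested. CPM are counts scaled with TMM factors.

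DNFB was compared with vehicle ears by edgeR 4.0.16 in R 4.3.3: TMM, filterByExpr with a minimum count of 10, the two-sided quasi-likelihood test without a block, Benjamini-Hochberg adjustment over 15317 genes and a threshold of 0.05. The approximate SE is the absolute log2 fold change over the square root of F. Log2 ratios within a mouse used a pseudocount of 0.1 CPM. The fit was run on simulated data with independent libraries, the same spread for every gene and no effect of the mouse. That run checked the code and not the calls in these paired ears.

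The title of each sample names its mouse, so both ears of an animal share a number. Deviations from the group means of same-mouse libraries correlated at -0.0974, -0.192 and -0.104 for mice 1, 2 and 3 across 15317 genes, and at 0.0152, 0.0510 and 0.0482 across the 51 matrix genes tested. Since the pairing comes from the animals, a fit with the mouse as a block is given where it changes a call. Alternatives were other scaling and filters, DESeq2 1.42.0, limma-voom (limma 3.58.1), a test against a minimum fold of 1.5, and leaving out each library or mouse.

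In GENCODE M21, of build GRCm38 and used for overlaps between genes only, 19 of the 52 genes share exonic bases with a gene on the opposite strand, and 6 (Loxl2, Loxl3, Nid1, Bgn, Aspn and Hapln3) have counts with decimals in all 6 libraries, so their values are uncertain to that extent. The 52 genes and the lists were chosen with earlier results of these data known. All 52 are accounted for; of the related lists, up to 3 increases, 3 decreases and 2 abundant genes that did not pass could be named, and 1 gene of these lists is not reported here by name. p-values measure the spread between these animals.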

Additional observations from a re-analysis of the deposited data

How the results depend on the processing

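Over 17 alternatives, 780 of 867 values of single matrix genes stayed on the same side of the threshold, 72 lost and 15 gained a call, and none changed direction with a call. The counts of 13 higher and 17 lower matrix genes, and of 22 higher and 29 lower genes on the related lists, stayed within 1.5 times under other scaling, other filters, DESeq2, limma-voom and the block for the mouse (11 higher and 16 lower matrix genes, 21 and 28 related genes with the block). Against a minimum fold of 1.5 they were 6, 11, 11 and 19, and 13.0% of all genes tested were then higher and 9.19% lower. Leaving out 1 library or 1 mouse gave 3 to 17 higher and 11 to 19 lower matrix genes, and 5 to 31 higher and 13 to 30 lower related genes. Over all genes tested the same leave-outs gave 10.8% to 29.6% higher and 6.09% to 29.5% lower. The counts of 3 and 5 higher genes came without mouse 2, where the share of all genes was 10.8%. Under all 17 alternatives 3 of the 13 higher genes (Spp1, Tnc and Vcan) and 9 of the 17 lower ones (Fmod, Cnmd, Chad, Aspn, Acan, Hapln1, Sparcl1, Ogn and Prelp) passed. The mouse block ended the calls of Sparc, Thbs4, Dcn and Lama3, gave Loxl4 one and changed no other among the matrix genes. Matn3 and Hapln3 rest on few counts, and Matn1 on too few to test.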
